A study of Mus musculus with 6 samples.

Results

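The Mir34 and Mir449 family was followed in small RNA libraries of whole mouse testis. It holds 5 of the 2202 miRNA genes of the mouse GENCODE annotation: Mir34b and Mir34c, which lie side by side on chromosome 9, and Mir449a, Mir449b and Mir449c, which lie together on chromosome 13. They were taken by name, and a read was counted for a gene when it was 18 to 26 nt long and matched the sense strand of that gene without a mismatch. The 6 libraries were Miwi2 knockout (KO) and Miwi2 wild type (WT) at 10 days post partum (dpp), Dnmt3L KO and Dnmt3L WT at 10 dpp, and Dnmt3L KO and Dnmt3L WT at 16.5 days post coitum (dpc), all on the C57BL/6 background. Each group was a single library from pooled whole testes, of 3 mice at 10 dpp and of 7 or 8 mice at 16.5 dpc. The WT mice were littermates of the KO mice, so the Miwi2 WT and Dnmt3L WT pools came from separate litters. The alleles are not named in the labels. DNMT3L is a cofactor of the DNA methyltransferases that methylate transposons in fetal male germ cells, and MIWI2 (PIWIL4) is the nuclear PIWI protein that directs this methylation with piRNAs.

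A miRNA gene is transcribed as a hairpin, from which a 5p and a 3p strand of about equal length are cut, and the strand that is kept binds mRNAs mainly through its seed, bases 2 to 8. The 5p strands of the family carry the same seed as Mir34a, a p53-induced miRNA from a separate locus that is expressed in many tissues. Mir34b/c and Mir449 are known from multiciliated epithelia and from meiotic and later male germ cells, and mice that lack both loci have defective cilia and infertile males. Mir449 is an intronic cluster of Cdc20b, a gene of multiciliated cells, while the transcription of Mir34b/c, like that of Mir34a, is activated by p53.

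Mature strands of the family are shown because the shared seed defines the family and because the balance of the 3p strands with the 5p strands differed between libraries. They are from RefSeq on GRCm38.p6, written 5′ to 3′ with the seed in capitals.
miR-34b-5p: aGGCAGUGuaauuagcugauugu
miR-449a-5p: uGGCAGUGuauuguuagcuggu
miR-449c-5p: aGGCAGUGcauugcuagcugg
miR-34a-5p: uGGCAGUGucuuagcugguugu
miR-34b-3p: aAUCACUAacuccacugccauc
miR-34c-3p: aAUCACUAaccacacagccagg
miR-449a-3p: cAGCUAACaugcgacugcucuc
The 5p strands shown fall into a single seed group, GGCAGUG. The 3p strands of Mir34b and Mir34c share the seed AUCACUA, which is not that of miR-449a-3p. After base 8, miR-449a-5p and miR-449c-5p are identical at 11 of 13 positions, while miR-34b-5p and miR-449a-5p are identical at 3 of 14. miR-34b-3p and miR-34c-3p are identical at 9 of 14 positions after base 8.

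On GRCm38, miR-34b-5p is at chr9:51103610-51103632, miR-34b-3p at chr9:51103574-51103595 and miR-34c-3p at chr9:51103044-51103065, all on the minus strand. The hairpins of Mir34b (chr9:51103562-51103645) and Mir34c (chr9:51103034-51103110) are 451 bases apart, in an intron of Btg4, a gene of the opposite strand. On the plus strand, miR-449a-5p is at chr13:113037549-113037570, miR-449a-3p at chr13:113037589-113037610 and miR-449c-5p at chr13:113036008-113036028. Mir449c (chr13:113035983-113036091), Mir449b (chr13:113037419-113037498) and Mir449a (chr13:113037534-113037624) span 1642 bases within intron 2 of Cdc20b, on the same strand as the host. miR-34a-5p is at chr4:150068473-150068494 on the plus strand. No read of the 5 genes matched a second miRNA gene, and for 0 of them did the first 18 bases occur in any other gene among the 141767 GENCODE transcripts searched.

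The libraries held 28701563 to 47232494 reads, of which 12101706 to 24433370 lay in miRNA genes. Levels are given as RPM, here reads per 1000000 reads of all miRNA genes, so that 3 reads correspond to 0.123 to 0.248 RPM. The share of 18 to 26 nt reads that lay in miRNA genes was 60.6% and 59.9% in the Miwi2 KO and WT libraries, 80.2% and 74.3% in the Dnmt3L KO and WT libraries of 10 dpp, and 48.2% and 52.3% in those of 16.5 dpc. Mir202, a Sertoli cell miRNA, and X-linked miRNAs of germ cells were read in every library, as whole testis should show. Small RNA reads do not measure the Dnmt3L or Miwi2 mRNA, so the genotype labels could not be checked here. With 1 library per group there is no test and no error between animals. The 95% intervals below cover counting error only, and PCR copies are counted as separate reads.

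Mir34c was the most abundant of the 5 genes in every library. Its level was 276 RPM in Miwi2 KO and 437 RPM in Miwi2 WT testes, 292 in Dnmt3L KO and 90.6 in Dnmt3L WT testes of 10 dpp, and 548 in Dnmt3L KO and 759.5 in Dnmt3L WT testes of 16.5 dpc. Mir34c was thus highest in both fetal libraries and lowest in the Dnmt3L WT library of 10 dpp, where it ranked 209th among miRNA genes, against 82nd in Dnmt3L WT at 16.5 dpc. Mir34b, its neighbour in the same transcript, was read less often: its level was 21.3 in Miwi2 KO, 21.1 in Miwi2 WT, 20.2 in Dnmt3L KO at 10 dpp, 8.10 in Dnmt3L WT at 10 dpp, 208 in Dnmt3L KO at 16.5 dpc and 40.7 in Dnmt3L WT at 16.5 dpc. The fetal Dnmt3L KO library stood above the other 5 for Mir34b.

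The Mir449 genes formed another pattern, with 2 high and 4 low libraries. The level of Mir449a was 8.99 in Miwi2 KO and 152 in Miwi2 WT, 127 in Dnmt3L KO and 4.91 in Dnmt3L WT at 10 dpp, and 2.56 in Dnmt3L KO and 5.48 in Dnmt3L WT at 16.5 dpc. Mir449c had levels of 6.97 in Miwi2 KO and 88.6 in Miwi2 WT, 33.0 in Dnmt3L KO and 1.31 in Dnmt3L WT at 10 dpp, and 3.14 in Dnmt3L KO and 2.74 in Dnmt3L WT at 16.5 dpc. Both genes were high in the Miwi2 WT and the Dnmt3L KO library of 10 dpp. A KO library and a WT library thus shared the high level, and a WT library and a KO library of the same age shared the low level. Mir449b had 3 reads in Miwi2 WT and 4 reads in Dnmt3L KO at 10 dpp, the same 2 libraries, and 0 reads in the other 4, where 3 reads would be a level of 0.123 to 0.248. In whole testis a higher level in each cell and a larger share of cells that express the gene cannot be told apart.

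**Figure D1:**
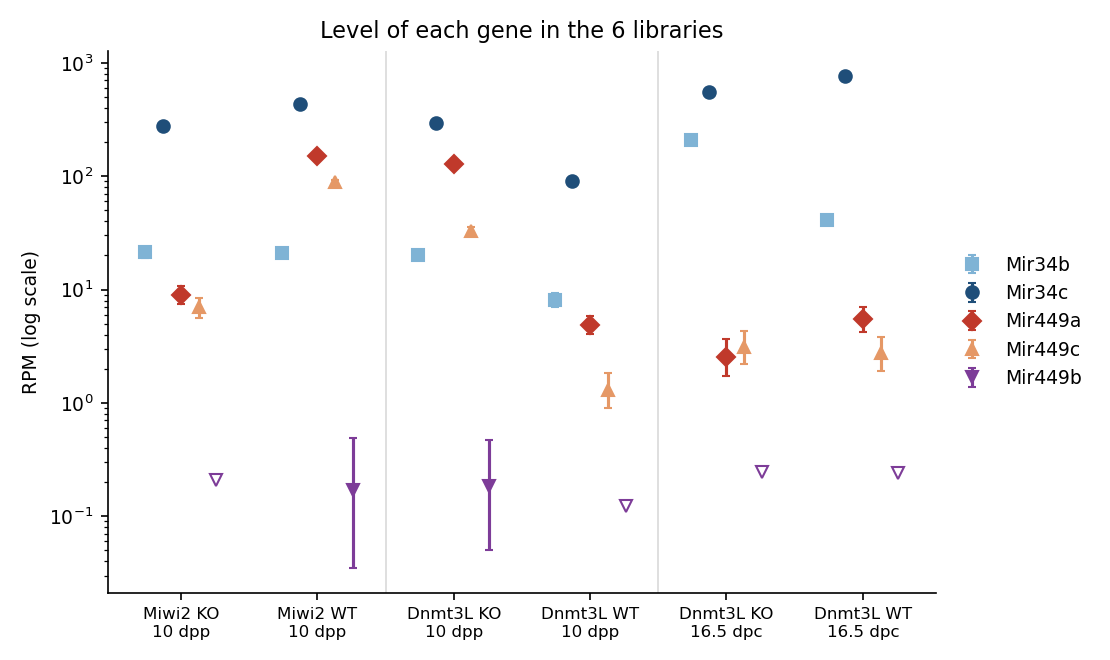
Level of each gene (RPM, log axis) in the 6 libraries, KO left of its WT; bars are 95% Poisson counting intervals, and open triangles mark 0 reads, drawn at the level of 3 reads. Mir34c lies above the other genes in every library, and Mir449a and Mir449c are high in Miwi2 WT and in Dnmt3L KO at 10 dpp, with levels of 33.0 to 152, and under 9 in the other 4 libraries.

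To give each KO to WT ratio a scale, the 2 WT libraries of 10 dpp were set against each other. Over the 315 miRNA genes with at least 1000 reads in the pair, 95% of the ratios between Miwi2 WT and Dnmt3L WT were within 5.79-fold (log2 2.53), and a ratio beyond this was called past the limit. By this construction 5.08% of miRNA genes, 16 of 315, are past the limit between the WT libraries themselves. Their median log2 ratio was 0.66 per miRNA read, and it turned to -0.26 with TMM (edgeR's trimmed mean of M values), -0.11 with median of ratios and -0.05 with all reads of the library as scaling. These libraries differ in litter and line and may differ in handling, and these cannot be told apart.

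In Miwi2 KO testes at 10 dpp, the Mir449 locus as a whole had a level of 16.0, against 241 in Miwi2 WT testes. The KO to WT ratio was 0.0663 (95% counting interval 0.0578 to 0.0757; log2 -3.92). Mir449a had a ratio of 0.0591 (0.0492 to 0.0706) and Mir449c a ratio of 0.0786 (0.0636 to 0.0963). They were the 2 miRNA genes with the largest changes, and the only ones past the limit, of the 311 with at least 1000 reads in the pair (0.643%). The median log2 ratio over those 311 genes was -0.09. The Mir34b/Mir34c locus had a level of 297 in Miwi2 KO and 458 in Miwi2 WT testes, a ratio of 0.649 (0.625 to 0.673; log2 -0.62) that was inside the limit. Within it Mir34c had a ratio of 0.632 (0.608 to 0.656), while Mir34b had 305 reads in Miwi2 KO and 375 in Miwi2 WT, a ratio of 1.01 (0.862 to 1.17) whose sign turned with the scaling. The same measure between the WT libraries, Miwi2 WT over Dnmt3L WT, was 38.7-fold (32.9 to 45.8; log2 5.27) for the Mir449 locus and 4.64-fold (4.43 to 4.86; log2 2.21) for the Mir34b/Mir34c locus. For either locus the WT libraries differed by more than Miwi2 KO differed from Miwi2 WT, and the Mir449 level of the Miwi2 KO library was between those of the 2 WT libraries. Mir449c and Mir449a also ranked 1st and 2nd of 315 miRNA genes by size of difference between the WT libraries (log2 6.08 and 4.95).

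In Dnmt3L KO testes at 10 dpp, both loci were read more often than in Dnmt3L WT testes. The Mir449 locus had a level of 160.3 in Dnmt3L KO and 6.22 in Dnmt3L WT, a ratio of 25.8 (21.9 to 30.5; log2 4.69). Mir449a had 2755 reads in Dnmt3L KO and 120 in Dnmt3L WT, a ratio of 25.9 (21.6 to 31.3) that was the largest in either direction of the 296 miRNA genes with at least 1000 reads in the pair. Of those 296, 74 were past the limit (25.0%), and 4 of the 74, Mir449a among them, were higher in Dnmt3L KO (1.35% of the 296). With reads of a single miRNA gene only, 7 of 201 were past the limit, which was wider in that setting (log2 3.23). Mir449c had 716 reads in Dnmt3L KO and 32 in Dnmt3L WT, too few for that set of 296, and a ratio of 25.2 (17.7 to 37.2). The Mir34b/Mir34c locus had a level of 312 in Dnmt3L KO and 98.7 in Dnmt3L WT, a ratio of 3.16 (3.02 to 3.31; log2 1.66), with Mir34c at 3.22 (3.07 to 3.38) and Mir34b at 2.49 (2.10 to 2.96), all inside the limit. With TMM, Mir34c lay just past it (log2 2.26, limit 2.25). The median log2 ratio over all 296 genes was 0.25. Beside these ratios stand the WT values already given, 38.7-fold for Mir449 and 4.64-fold for Mir34b/c: Miwi2 WT exceeded Dnmt3L WT by more than Dnmt3L KO did. That order depended on the scaling, since with TMM the log2 ratios of the Mir449 locus were 5.26 for Dnmt3L KO over WT and 4.36 for Miwi2 WT over Dnmt3L WT, and those of the Mir34b/Mir34c locus 2.24 and 1.30. Under the 11 alternative settings run, the Mir449 ratio between the WT libraries kept a log2 value of at least 4.36.

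At 16.5 dpc the Dnmt3L KO and WT libraries were close at both loci. The Mir449 locus was represented by 69 reads in Dnmt3L KO and 102 in Dnmt3L WT, levels of 5.70 and 8.22, with a ratio of 0.693 (0.503 to 0.950). Mir449a had a ratio of 0.467 (0.295 to 0.724) on 31 reads in Dnmt3L KO and 68 in Dnmt3L WT, and the ratio of Mir449c was 1.15 (0.702 to 1.88), an interval that includes 1. The Mir34b/Mir34c locus had a level of 756 in Dnmt3L KO and 800.2 in Dnmt3L WT, a ratio of 0.945 (0.918 to 0.972), whose sign turned with TMM scaling (log2 0.03) and with reads of a single miRNA gene only (log2 0.19). This sum hid opposite differences in its members: Mir34c had a ratio of 0.722 (0.699 to 0.745) and Mir34b a ratio of 5.11 (4.64 to 5.64; log2 2.35). Of the 271 miRNA genes with at least 1000 reads in the pair, 6 were past the limit (2.21%). Mir34b, 11th by size of change, lay just inside, and it passed under 3 of the 11 alternatives, with TMM or median of ratios scaling and with a denominator without the 10 most read miRNA genes. For comparison, Miwi2 WT over Dnmt3L WT at 10 dpp was 2.61-fold for Mir34b, 4.82-fold for Mir34c, 31.0-fold for Mir449a and 67.7-fold for Mir449c. No second WT library was available here for 16.5 dpc.

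**Figure D2:**
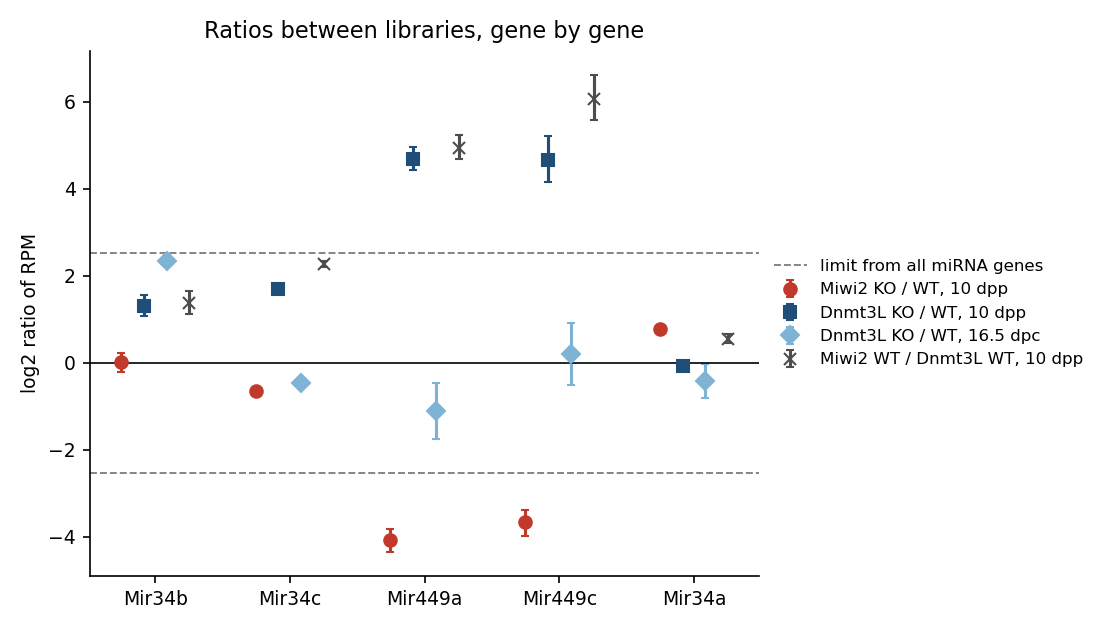
Log2 ratios of RPM for 4 genes of the family with a ratio and for Mir34a, with 95% counting intervals; dashed lines mark the limit of log2 2.53 set by all miRNA genes between the WT libraries. Crosses are Miwi2 WT over Dnmt3L WT at 10 dpp: for Mir449a and Mir449c they lie at 4.95 and 6.08, above the Dnmt3L KO to WT ratios of 4.69 and 4.66 at the same age.

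With age the loci parted in the Dnmt3L WT libraries. The Mir34b/Mir34c locus had a level of 98.7 at 10 dpp and 800.2 at 16.5 dpc, a ratio of 0.123 (0.118 to 0.129; log2 -3.02) that was past the limit. Mir34c was past it as well, at 0.119 (0.114 to 0.125). Both were inside the limit when scaled to all reads (log2 -1.89 and -1.93, limit 2.28) and with reads of a single miRNA gene only (log2 -2.95 and -3.00, limit 3.23). The ratio of Mir34b was 0.199 (0.168 to 0.235). The background is broad here, since 62 of 297 miRNA genes were past the limit between the ages (20.9%). The Mir449 locus had 152 reads at 10 dpp and 102 at 16.5 dpc, a ratio of 0.756 (0.585 to 0.982) that turned to a log2 value of 0.73 when scaled to all reads of the library. Mir34a, the third locus with this seed, had a level of 55.6 at 10 dpp and 10.4 at 16.5 dpc. Its ratio of 5.35 (4.46 to 6.46, log2 2.42) was inside the limit per miRNA read. With each of the other scalings, whose limits were log2 2.20 to 2.28, the ratio was past the limit. Scaled to all reads, Mir34a had 35.7 and 3.04 per 1000000 reads of the library. The age comparison rests on Dnmt3L WT alone, the lowest 10 dpp library for Mir34c, and the Mir34c level of 437 in Miwi2 WT at the same age was nearer to the fetal 759.5.

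The ratio of Mir449 to Mir34b/c reads inside a library does not depend on the scaling. There were 0.0537 Mir449 reads per Mir34b/c read in Miwi2 KO (0.0468 to 0.0613) and 0.526 in Miwi2 WT (0.506 to 0.546). There were 0.514 in Dnmt3L KO (0.493 to 0.535) and 0.0630 in Dnmt3L WT (0.0531 to 0.0743) at 10 dpp. At 16.5 dpc there were 0.00754 in Dnmt3L KO (0.00586 to 0.00955) and 0.0103 in Dnmt3L WT (0.00837 to 0.0125). The loci therefore did not move in proportion. The ratio was 0.102 times as high in Miwi2 KO as in Miwi2 WT, 8.15 times as high in Dnmt3L KO as in Dnmt3L WT at 10 dpp, and 8.34 times as high in Miwi2 WT as in Dnmt3L WT. The intervals of Miwi2 WT and Dnmt3L KO at 10 dpp overlapped, and so did those of Miwi2 KO and Dnmt3L WT at 10 dpp. With reads of 20 to 24 nt only, which drop most of Mir449c, the ratio was 0.340 in Miwi2 WT and 0.417 in Dnmt3L KO, and 0.0327 in Miwi2 KO and 0.0504 in Dnmt3L WT. Inside the clusters the ratios varied less at 10 dpp: Mir34c to Mir34b was 11.2 to 20.7 in the 4 libraries of 10 dpp and 18.7 in Dnmt3L WT at 16.5 dpc, but 2.63 in Dnmt3L KO at 16.5 dpc. Mir449a to Mir449c was 1.29 in Miwi2 KO and 1.72 in Miwi2 WT, and 3.85 in Dnmt3L KO and 3.75 in Dnmt3L WT at 10 dpp. At this age the ratio thus went with the line and not with the height of the locus. The libraries of the lines also differed in read length. Reads of 18 to 26 nt were 23672689 of 37218684 in Miwi2 KO and 29633733 of 45010155 in Miwi2 WT. They were 27026849 of 28701563 in Dnmt3L KO and 32867366 of 38069968 in Dnmt3L WT. Whether this had a part in the ratio was not tested. At 16.5 dpc it was 0.816 (0.491 to 1.35) in Dnmt3L KO and 2 (1.31 to 3.11) in Dnmt3L WT. Ligation to adapters differs between sequences, so a ratio of reads between genes is not a ratio of molecules.

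In the fetal Dnmt3L pair the 3p strands of Mir34b and Mir34c, those with the seed AUCACUA above, were higher in KO, while the lower Mir34c total came from its 5p strand. miR-34c-3p had 903 reads in Dnmt3L KO and 18 in Dnmt3L WT at 16.5 dpc, levels of 74.6 and 1.45 and a ratio of 51.4 (32.3 to 87.1). miR-34b-3p had 2424 reads in Dnmt3L KO and 393 in Dnmt3L WT, a ratio of 6.32 (5.68 to 7.05). The 5p strands had ratios of 0.625 (0.604 to 0.646) for miR-34c-5p and 0.869 (0.654 to 1.15) for miR-34b-5p, an interval that includes 1. Among the 406 strands with at least 500 reads in the pair, miR-34c-3p had the highest ratio and miR-34b-3p the 7th highest. A limit taken from single strands between the WT libraries was 6.42-fold, which 6 strands passed upwards (1.48%), miR-34c-3p among them and miR-34b-3p not.

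As a share of the gene's own reads, the 3p strand of Mir34c made up 13.6% (12.8 to 14.5) in Dnmt3L KO and 0.191% (0.113 to 0.302) in Dnmt3L WT at 16.5 dpc. In the libraries of 10 dpp the share was 0.783% in Miwi2 KO and 0.645% in Miwi2 WT, and 1.85% in Dnmt3L KO and 1.45% in Dnmt3L WT. The log2 change of the 3p to 5p ratio of Mir34c in fetal Dnmt3L KO over WT, 6.32, was the highest of 250 miRNA genes with enough reads of both strands, and that of Mir34b, 2.86, was 14th. The whole fetal pair leaned the same way, with a higher 3p share in Dnmt3L KO for 157 of the 250 genes (62.8%) and a median log2 change of 0.74. The 3p reads rest on this library, and whether RNA quality or library preparation had a part in them was not tested. In Mir34b the 3p strand was the more frequent in 4 libraries: it made up 41.3% of the reads in Miwi2 KO and 48.3% in Miwi2 WT, 73.9% in Dnmt3L KO and 63.6% in Dnmt3L WT at 10 dpp, and 96.2% in Dnmt3L KO and 77.8% in Dnmt3L WT at 16.5 dpc.

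**Figure D3:**
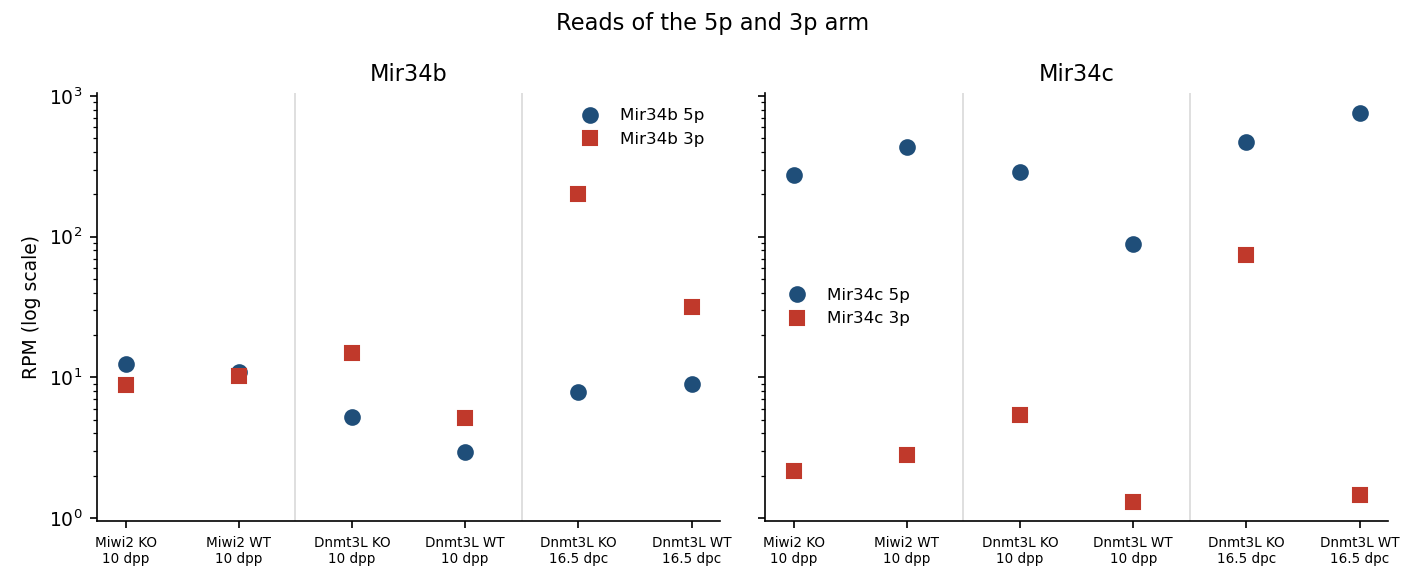
Reads of the 5p strand (circles) and the 3p strand (squares) of Mir34b and Mir34c in RPM, on a log axis shared by both panels, in the 6 libraries with KO left of its WT. The 3p strands stand out in Dnmt3L KO at 16.5 dpc, at 200.3 for Mir34b and 74.6 for Mir34c, against 31.7 and 1.45 in Dnmt3L WT, while the 5p strands differ less.

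Mir449a and Mir449c were read almost entirely as 5p strands. The 3p side of the Mir449a hairpin had 0 of 129 reads in Miwi2 KO, which allows a share of up to 2.33% by the floor of 3 counts and 2.82% by the Clopper-Pearson interval, and 78 of 2698 reads (2.89%, 2.29 to 3.60) in Miwi2 WT. The 2 Clopper-Pearson intervals overlapped. It had 48 of 2755 reads (1.74%, 1.29 to 2.30) in Dnmt3L KO and 3 of 120 in Dnmt3L WT at 10 dpp. Some of these were the loop of the hairpin, an 18 nt read that fills the gap between miR-449a-5p and miR-449a-3p. It was found 12 times in Miwi2 WT and 7 times in Dnmt3L KO at 10 dpp, the libraries with high Mir449a, and 3 times in Dnmt3L KO at 16.5 dpc. Mir449c had 0 reads of its 3p side in all 6 libraries, among 1573 reads in Miwi2 WT and 716 in Dnmt3L KO at 10 dpp.

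The reads kept the family seed. At least 99.0% of the 5p reads of Mir34c, Mir449a and Mir449c in each library began at the same base of their gene, so that the seed GGCAGUG was in place. In Mir34b at least 90.4% of the 5p reads did, and others began 1 base upstream. The most frequent length was 23 nt for Mir34c, 91.0% to 94.2% of its 5p reads, and 22 nt for Mir449a, 81.4% to 91.2%.

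Mir449c was longer than its annotation. Its RefSeq 5p strand has 21 nt, and 0 reads of that length were found in any of the libraries. The read that made up 75.7% to 90.6% of its 5p reads is 26 nt long and runs 5 bases past the annotated 3′ end, at chr13:113036008-113036033 on the plus strand of GRCm38. It is shown, as deposited, with these 5 bases in capitals.
Mir449c 5p read: aggcagtgcattgctagctggCTGTT
The form was the same in the libraries with high and with low Mir449c, at 77.4% in Miwi2 WT, 75.7% in Dnmt3L KO and 90.6% of 32 reads in Dnmt3L WT at 10 dpp. A count restricted to 20 to 24 nt, a usual range for miRNAs, would therefore miss most of Mir449c.

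Shorter and tailed forms of Mir449a varied between libraries. A 20 nt form made up 11.6% (6.66 to 18.5) of the 5p reads in Miwi2 KO and 4.73% (3.95 to 5.62) in Miwi2 WT, and 2.66% (2.09 to 3.34) in Dnmt3L KO and 9.40% (4.79 to 16.2) in Dnmt3L WT at 10 dpp. It was the larger share in the libraries with low Mir449a at this age. At 16.5 dpc, where Mir449a was also low, the share was 10.7% (2.27 to 28.2) of 28 reads in Dnmt3L KO. In Dnmt3L WT it was 1.47% (0.0372 to 7.92) of 68 reads, so the pattern did not hold in every library with low Mir449a. Reads with up to 2 further bases at the 3′ end that are not in the gene are outside the counts above. They made up 11.6% (6.93 to 18.0) of the Mir449a 5p reads in Miwi2 KO and 6.89% (5.99 to 7.89) in Miwi2 WT, and 11.0% (9.89 to 12.1) in Dnmt3L KO and 10.7% (5.97 to 17.3) in Dnmt3L WT at 10 dpp. A single added A accounted for most, 12 of 17 such reads in Miwi2 KO and 172 of 194 in Miwi2 WT, and 292 of 334 in Dnmt3L KO and 12 of 14 in Dnmt3L WT. For Mir34c the tailed share was 1.14% to 1.93% in the 6 libraries, below that of Mir449a in each of the 4 libraries of 10 dpp.

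**Figure D4:**
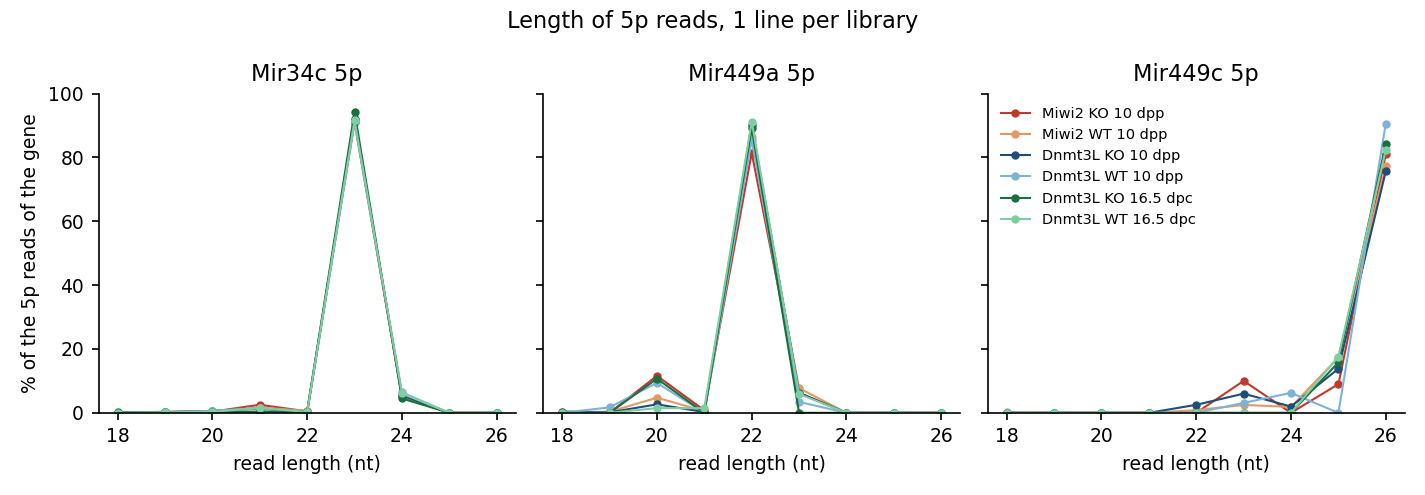
Length of the 5p reads of Mir34c, Mir449a and Mir449c in nt, as a share of the 5p reads of the gene in %, with a line for each library. Mir34c peaks at 23 nt and Mir449a at 22 nt, and Mir449c has its peak at 26 nt, the longest length counted.

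The seed as a whole was counted over the 5 genes and Mir34a, the genes whose 5p strand carries it. Their reads with the seed in place had a level of 428 in Miwi2 KO and 754 in Miwi2 WT, a ratio of 0.567 (0.550 to 0.585). The level was 499 in Dnmt3L KO and 151 in Dnmt3L WT at 10 dpp, a ratio of 3.29 (3.17 to 3.42), and 493 in Dnmt3L KO and 784 in Dnmt3L WT at 16.5 dpc, a ratio of 0.629 (0.609 to 0.650). Miwi2 WT over Dnmt3L WT was 4.98-fold (4.80 to 5.17). At 10 dpp seed levels thus differed less than those of the Mir449 locus in all 3 comparisons, but not in the fetal pair, where the Mir449 ratio was 0.693. Mir34c held most seed reads in every library.

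Which genes supplied the seed changed between libraries. At 16.5 dpc Mir34c held 95.9% (95.4 to 96.4) of these reads in Dnmt3L KO and 96.7% (96.3 to 97.0) in Dnmt3L WT. At 10 dpp the Mir449 locus held 3.71% (3.25 to 4.22) in Miwi2 KO and 31.3% (30.5 to 32.1) in Miwi2 WT, and 31.6% (30.7 to 32.5) in Dnmt3L KO and 4.03% (3.42 to 4.71) in Dnmt3L WT. Mir34a held 29.7% (28.6 to 30.9) in Miwi2 KO and 9.93% (9.42 to 10.4) in Miwi2 WT, and 10.1% (9.52 to 10.7) in Dnmt3L KO and 35.1% (33.5 to 36.6) in Dnmt3L WT. At 10 dpp Mir34a was a smaller part of the seed reads where Mir449 was a larger part. Shares of the same total tend to move apart in this way. At 16.5 dpc both were small, Mir449 at 1.11% and Mir34a at 1.49% in Dnmt3L KO, and 1.05% and 1.19% in Dnmt3L WT. The level of Mir34a itself was 139 in Miwi2 KO and 81.6 in Miwi2 WT, a ratio of 1.70 (1.59 to 1.82), and 53.1 in Dnmt3L KO and 55.6 in Dnmt3L WT at 10 dpp, a ratio of 0.954 (0.881 to 1.03), both inside the limit.

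Other epithelial miRNAs were read beside Mir449, since multiciliated epithelium lines ducts next to the testis. The list holds Mir200a, Mir200b, Mir200c, Mir141, Mir429, Mir203, Mir205 and Mir375, all 8 with reads in every library. Their summed level was 987 in Miwi2 KO and 1095 in Miwi2 WT, 956 in Dnmt3L KO and 507 in Dnmt3L WT at 10 dpp, and 306 in Dnmt3L KO and 355 in Dnmt3L WT at 16.5 dpc. In Dnmt3L KO over WT at 10 dpp, 7 of the 8 were above 1, with a median of 3.55-fold, and 3 of the 7 with at least 1000 reads were past the limit, Mir141 at 7.98-fold, Mir375 at 7.07-fold and Mir205 at 6.00-fold. Together with Mir449a they were the 4 miRNA genes past the limit upwards in that comparison. Mir200c had a ratio of 9.77 (6.80 to 14.5) on 286 reads in Dnmt3L KO and 33 in Dnmt3L WT. In Miwi2 KO over WT, 5 of 8 were below 1, with a median of 0.716 and 0 of 6 past the limit. In Miwi2 WT over Dnmt3L WT, 7 of 8 were above 1, with a median of 2.35-fold. There 2 of 6 were past the limit, Mir205 at 11.1-fold and Mir375 at 9.27-fold. Over all miRNA genes with at least 1000 reads in the pair, the median was itself 1.58-fold in this comparison. It was 1.19 in Dnmt3L KO over WT at 10 dpp and 0.940 in Miwi2 KO over WT. Counts above and below 1 include this shift, which depended on the scaling.

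Of the 8, Mir375 and Mir141 are described because of their values. Mir375, a miRNA of endocrine and secretory epithelium, had a level of 55.3 in Miwi2 KO and 274 in Miwi2 WT, 209 in Dnmt3L KO and 29.6 in Dnmt3L WT at 10 dpp, and 115 in Dnmt3L KO and 168 in Dnmt3L WT at 16.5 dpc. Mir141, of the Mir200 family, had a level of 14.4 in Miwi2 KO and 35.6 in Miwi2 WT, 51.6 in Dnmt3L KO and 6.47 in Dnmt3L WT at 10 dpp, and 3.14 in Dnmt3L KO and 5.24 in Dnmt3L WT at 16.5 dpc. At 10 dpp both were higher in Miwi2 WT and Dnmt3L KO than in the other 2 libraries, as Mir449 was. So were Mir200c and, over a narrower range, Mir200b, with 148 in Miwi2 KO and 180.0 in Miwi2 WT, and 209 in Dnmt3L KO and 109 in Dnmt3L WT. The other 4 were not. Mir200a had 106 in Miwi2 KO and 75.7 in Miwi2 WT, Mir429 had 146 and 85.1 in these libraries, and Mir203 had 442 and 322. Mir205 had 63.9 in Dnmt3L KO at 10 dpp, below the 73.4 of Miwi2 KO. Mir375 was also read at 16.5 dpc, where Mir449 was low. The part of epithelium in the Mir449 levels was not tested.

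**Figure D5:**
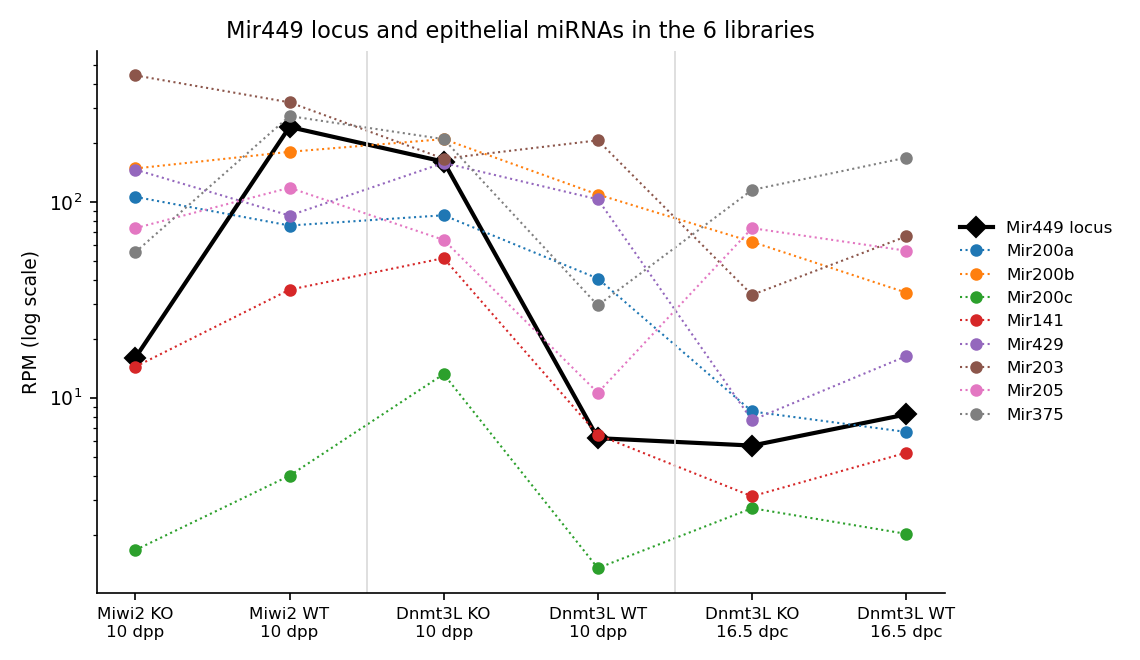
Level of the Mir449 locus (black) and of 8 epithelial miRNAs in the 6 libraries, in RPM on a log axis, with KO left of its WT; lines only join the values of a gene. Mir141 and Mir375 are high and low in the same libraries of 10 dpp as Mir449, with levels of 35.6 to 274 in Miwi2 WT and Dnmt3L KO and of 6.47 to 55.3 in Miwi2 KO and Dnmt3L WT.

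The X-linked miRNAs of germ cells ran the other way within each line at 10 dpp. These 22 X-linked miRNAs of the Mir506 family and its neighbours, which are read in spermatogonia and spermatocytes, had a summed level of 89480.2 in Miwi2 KO and 45579 in Miwi2 WT, 15597 in Dnmt3L KO and 54416 in Dnmt3L WT at 10 dpp, and 10388 in Dnmt3L KO and 11217 in Dnmt3L WT at 16.5 dpc, with Mir509 at 0 reads throughout and Mir742 at 0 in Dnmt3L WT at 16.5 dpc. In Miwi2 KO over WT, 21 of 21 with a ratio were above 1, with a median of 1.80-fold and 0 of 18 past the limit. These are not all separate, since Mir465b-1 and Mir465b-2 are copies that share reads, as are Mir465c-1 and Mir465c-2. The intervals of Mir465d (0.279 to 11.3) and Mir742 (0.847 to 3.98) include 1. In Dnmt3L KO over WT at 10 dpp, 17 of 19 were below 1, with a median of 0.383 and 0 of 17 past the limit. Within each line at 10 dpp, Mir449 was lower where these miRNAs were higher. In Miwi2 WT over Dnmt3L WT the summed level of these miRNAs had a ratio of 0.838, against 38.7-fold for Mir449. Gene by gene, 12 of 20 with a ratio were above 1 there and 8 below, with a median of 1.13-fold. The median over all miRNA genes with at least 1000 reads in that pair was 1.58-fold. The part of germ cell content in the Mir449 levels was not tested. The other marker lists differed less in summed level between the libraries of 10 dpp than the X-linked miRNAs. The summed level of 6 peritubular and mesenchymal miRNAs was 45354 to 48942, that of 3 white blood cell miRNAs 182 to 241, and that of 2 red blood cell miRNAs 25.1 to 54.9. Mir202 of Sertoli cells was at 397 to 800.2 and Mir126a of endothelium at 906 to 1860.3 in those libraries. Of 10 annotated miRNAs of early germ and pluripotent cells, 4 or 5 were read at 10 dpp, with a summed level of 47.9 to 90.5. Of these, 4 of 5 with a ratio were below 1 in Miwi2 KO over WT (median 0.651), 4 of 4 below 1 in Dnmt3L KO over WT (median 0.775), and 5 of 5 above 1 in Miwi2 WT over Dnmt3L WT (median 2.29). The medians over all miRNA genes with at least 1000 reads were 0.940, 1.19 and 1.58 in these comparisons.

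The other p53-linked miRNAs differed less than Mir449 at 10 dpp, and some in the same directions. The list was Mir192, Mir194-1, Mir194-2, Mir215, Mir107, Mir143, Mir145a and Mir605, of which 7 were in the annotation. In Miwi2 KO over WT, 3 of the 7 were above 1 and 4 below, with ratios of 0.634 to 1.97. In Dnmt3L KO over WT at 10 dpp, 6 were above 1 and 1 below, with ratios of 0.766 to 2.21. In Miwi2 WT over Dnmt3L WT, 4 were above 1 and 3 below, with ratios of 0.582 to 2.80. Mir192 lay on the same side of 1 as Mir449 in each of these 3 comparisons, at 0.634, 1.46 and 2.62. Mir194-1 had 0.940 (0.832 to 1.06), 1.82 and 2.80, and Mir194-2 had 0.936 (0.840 to 1.04), 1.74 and 2.76, so that for both the interval of Miwi2 KO over WT includes 1. At 16.5 dpc, 2 were above 1 and 5 below, with ratios of 0.121 to 2.36. Of those with at least 1000 reads, 6 in Miwi2 KO over WT, 4 in either Dnmt3L KO over WT and 5 in Miwi2 WT over Dnmt3L WT, 0 were past the limit.

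At 10 dpp the loci had the same order per miRNA read, though not in proportion. From highest to lowest it was Miwi2 WT, Dnmt3L KO, Miwi2 KO and Dnmt3L WT. With TMM, median of ratios or all reads as scaling, Dnmt3L KO stood above Miwi2 WT at both loci. Scaled to all reads, the log2 ratios over Dnmt3L WT were 4.92 for Dnmt3L KO and 4.57 for Miwi2 WT at Mir449. At Mir34b/c they were 1.89 and 1.51. In the fetal libraries Mir34b/c was high and Mir449 low. As a description over these 6 points, which share their scaling, Pearson's r of log2(level + 1) was 0.03 between the loci, 0.72 between Mir34b and Mir34c, and 0.95 between Mir449a and Mir449c. Of 384 other miRNA genes with at least 1000 reads in all, the 5 most like the Mir449 locus were Mir141 (r = 0.95), Mir221 (0.91), Mir25 (0.90), and Mir199a-1 and Mir199a-2 (0.86 each), the last pair being copies that share reads. Mir141 had 51.6 in Dnmt3L KO and 6.47 in Dnmt3L WT at 10 dpp, where Mir25 had 8044 and 5278, a smaller difference. The 5 most like the Mir34b/Mir34c locus were Mir181b-2 (0.98) and Mir181b-1 (0.97), again copies that share reads, Mir493 (0.96), Mir666 (0.95) and Mir149 (0.95). Mir149 had a level of 788 in Dnmt3L KO and 1089.7 in Dnmt3L WT at 16.5 dpc, and 168 in Dnmt3L KO and 80.8 in Dnmt3L WT at 10 dpp. Ranked by Spearman's correlation, 2 of the 5 stayed on the list for Mir449, the copies Mir199a-1 and Mir199a-2, while Mir141 did not. For Mir34b/c Mir149 stayed (0.94). Mir493 tied with it by this measure and was left out only because the list was cut within the tie.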

How the data were processed

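Small RNA of 18 to 35 nt from pooled whole testes was sequenced with the Illumina TruSeq small RNA kit, per the labels. The authors deposited, for each library, a list of distinct read sequences with the count of each, and nothing in them is normalized. The submitters' processing notes name the build mm9, and how reads were trimmed and counted is not given in the sources used here. Coordinates printed are of GRCm38 (GENCODE vM21 and RefSeq), not mm9.

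From these counts, reads of 18 to 26 nt were matched without mismatch to the sense strand of 2202 GENCODE miRNA genes. A read that matches several miRNA genes was divided equally among them. Ratios of levels have exact conditional binomial intervals, levels exact Poisson intervals and shares Clopper-Pearson intervals, all at 95% and for counting error only. A ratio was called past the limit when its size exceeded 95% of those between the WT libraries of 10 dpp, over miRNA genes with at least 1000 reads in the pair compared. No test was run, since each group has 1 library. The alternatives were other scalings (edgeR 4.0.16 TMM, DESeq2 1.42.0 median of ratios, all reads, and no top 10 genes), read lengths of 20 to 24 and 18 to 32 nt, reads of a single miRNA gene only, tailed reads, mature starts only, and other minimum reads for the limit. The ratios of single strands, the loop and the 20 nt share were added after the data were seen. Python 3.11.15, numpy 2.4.6 and scipy 1.17.1 were used, and the counting was tested on simulated data.

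The members and all lists were chosen with earlier results of these data known. Genes named are the 5 members, Mir34a, the marker lists, the p53-linked list, and the 5 miRNA genes most like each locus by Pearson's r. Mir292a and Mir605 are not in the annotation used.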

Additional observations from a re-analysis of the deposited data

Results flagged for a closer look

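In the Dnmt3L line the ratio of KO to WT lay on opposite sides of 1 at 10 dpp and at 16.5 dpc for both loci and for Mir34c and Mir449a. The difference between the ages was not tested, since each group has 1 library. The Mir449 locus had a KO to WT ratio of 25.8 at 10 dpp and 0.693 at 16.5 dpc, and Mir449a had 25.9 at 10 dpp and 0.467 at 16.5 dpc. The Mir34b/Mir34c locus had a ratio of 3.16 at 10 dpp and 0.945 at 16.5 dpc, a fetal value whose sign turned with the scaling, and Mir34c had 3.22 at 10 dpp and 0.722 at 16.5 dpc. The other members with a ratio did not lie on opposite sides: Mir34b had 2.49 at 10 dpp and 5.11 at 16.5 dpc, and Mir449c had 25.2 at 10 dpp and 1.15 at 16.5 dpc, with an interval that includes 1. At 16.5 dpc the Mir449 ratios rest on few reads, 31 of Mir449a and 38 of Mir449c in Dnmt3L KO, against 68 and 34 in Dnmt3L WT.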

How the results depend on the processing

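No paired analysis was possible because each group has 1 library. Of 110 values for the locus ratios under 11 alternatives, 105 kept their direction and their side of the limit, including every Mir449 ratio in Miwi2 KO over WT (log2 -4.10 to -3.80), in Dnmt3L KO over WT at 10 dpp (4.59 to 5.26) and in Miwi2 WT over Dnmt3L WT (4.36 to 5.53). The Mir34b/Mir34c log2 ratio of Dnmt3L KO over WT at 16.5 dpc turned to 0.03 with TMM and 0.19 with reads of a single miRNA gene only. In Dnmt3L WT at 10 dpp over 16.5 dpc, that locus fell inside the limit when scaled to all reads (-1.89, limit 2.28) or with reads of a single gene only (-2.95, limit 3.23), and the Mir449 locus turned to 0.73, Mir449a to 0.97 and Mir449c to 0.07 when scaled to all reads, and Mir449a to 0.06 with tailed reads. Mir34b in Miwi2 KO over WT turned to -0.06 with median of ratios, -0.02 with all reads, -0.18 without the top 10 genes and -0.08 with reads of a single gene only. Restricted to 20 to 24 nt, the Mir449 to Mir34b/c ratio was 0.0327 in Miwi2 KO, 0.340 in Miwi2 WT, 0.417 in Dnmt3L KO and 0.0504 in Dnmt3L WT at 10 dpp, and 0.00307 in Dnmt3L KO and 0.00687 in Dnmt3L WT at 16.5 dpc, because the 26 nt reads of Mir449c drop out. With tailed reads it was 0.547 in Miwi2 WT and 0.559 in Dnmt3L KO at 10 dpp. The causes of the other changes were not tested. The number of miRNA genes past the limit was 74 in Dnmt3L KO over WT at 10 dpp and 7 with reads of a single gene only, where the limit was wider. In Miwi2 KO over WT the number was 2 and ranged over 1 to 11. Scaling moved the median log2 ratio of all miRNA genes between the WT libraries to -0.26 with TMM, against 0.66, and that of Dnmt3L KO over WT at 10 dpp to 0.83, against 0.25. Depth limits Mir449 at 16.5 dpc, where each gene had at most 68 reads, and Mir449b throughout.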

Other observations

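Reads of the strand opposite to a family hairpin were found for Mir34b alone, 17 in Miwi2 KO and 15 in Miwi2 WT, 4 in Dnmt3L KO and 7 in Dnmt3L WT at 10 dpp, and 5 in Dnmt3L KO and 8 in Dnmt3L WT at 16.5 dpc. The other 4 genes had 0 such reads.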
